A study of Mus musculus with 21 samples.

Results

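The genes described here encode the SR proteins and the heterogeneous nuclear ribonucleoproteins (hnRNPs), the main families of RNA-binding proteins that decide how exons are joined. They were taken as every gene of the count table named Srsf followed by a number, which gave 11 SR genes, and every gene whose name begins with Hnrnp, which gave 21, so 32 of 24984 genes in all. One of them, the pseudogene Hnrnpa1l2-ps2, had between 0 and 2 counts in each library and did not pass the filter on low counts. The other 31 (11 SR and 20 hnRNP genes) were among the 16959 genes tested, and each had at least 240 counts in every library used, so the filter did not depend on any 1 group.

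The assay was BrU-seq, which reads newly made transcripts: cells take up bromouridine, and only RNA that carries it is captured for sequencing. Primary cortical cultures from CD1 mice, at day 17 in vitro, were first held for 30 min in DMSO (the solvent) or in 25 µM MM401, an inhibitor of the MLL1 histone methyltransferase complex. Bicuculline methiodide at 40 µM, which blocks GABA-A receptors and so raises network activity, or water was then given, and the incubation lasted 1 h or 4 h with 2 mM bromouridine in its last 30 min. The comparison asks how the transcription of splicing factor genes responded to raised activity, and whether it did so in the same way with MLL1 inhibited. The groups were DMSO with water 4 h, DMSO with bicuculline 1 h and DMSO with bicuculline 4 h (3 libraries each), MM401 with water 1 h (3), MM401 with water 4 h (2 used), and MM401 with bicuculline 1 h and 4 h (3 each). All carried bromouridine, and none was without either DMSO or MM401. A DMSO group with water at 1 h was not analysed here, so both DMSO responses were taken against the same 3 water libraries of 4 h and are not independent of each other.

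SR proteins carry RNA recognition motifs and a tail rich in arginine and serine. They bind exonic enhancers, recruit the spliceosome and generally favour inclusion of the exon, and kinases of the CLK and SRPK families switch them on and off by phosphorylating the tail. The hnRNPs coat nascent transcripts and often act the other way by silencing exons, and several of them also carry mRNA into dendrites and axons. Many genes of both families limit their own output by splicing in an exon that sends the mRNA to decay, which is why nascent RNA and mature mRNA of these genes can differ.

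Each of the 20 libraries used held between 49886348 and 87939384 counts in genes, and the members had between 240 and 26369 counts per library. Replicate 3 of MM401 with water 4 h held 316741 counts, 0.503% of the median of the other 20 libraries, and was left out. Replicate 1 of DMSO with water 4 h had a TMM scaling factor of 1.02 against 1.14 and 1.16 in the other replicates of its group, and results that turn on it are given without it below. All 7 neuronal markers were detected, with Slc17a7 lowest at 10.2 to 19.6 and Syt1 at 1991 to 3097 CPM (counts scaled to the TMM-adjusted library total) and Map2 at 1409 to 2425. Glia were present too: the 6 astrocyte markers summed to 1049 to 1628 CPM, the 7 oligodendrocyte lineage markers to 139 to 189 CPM and the 6 microglial markers to 23.4 to 40.0 CPM. The 3 endothelial markers summed to 1.44 to 3.01 CPM, with medians of 0 for Cldn5, 1.17 for Pecam1 and 0.90 for Flt1. These are bulk cultures, in which fewer cells of a type and less RNA per cell cannot be told apart.

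The stretch just before the transcription start is shown for 4 members because they span the responses described below: Hnrnpa2b1 and Hnrnpu, which rose early and then fell back, Srsf5, which rose, and Srsf9, which fell. Each sequence is the 250 bases before the RefSeq start (GRCm38.p6, the mm10 build), written 5′ to 3′ on the strand of the gene. Capitals mark CCAAT boxes (CCAAT), half-sites of the cAMP response element (TGACG) and GC boxes (GGGCGG), each searched on both strands. The windows are chr6:51469895-51470144, minus strand for Hnrnpa2b1, chr1:178337816-178338065, minus strand for Hnrnpu, chr12:80945249-80945498, plus strand for Srsf5 and chr5:115326927-115327176, plus strand for Srsf9.
Hnrnpa2b1: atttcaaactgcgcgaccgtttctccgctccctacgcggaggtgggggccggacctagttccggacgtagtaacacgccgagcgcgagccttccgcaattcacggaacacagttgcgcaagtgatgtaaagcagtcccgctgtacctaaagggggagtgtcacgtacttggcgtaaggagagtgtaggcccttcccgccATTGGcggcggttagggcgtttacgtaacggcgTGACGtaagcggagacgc
Hnrnpu: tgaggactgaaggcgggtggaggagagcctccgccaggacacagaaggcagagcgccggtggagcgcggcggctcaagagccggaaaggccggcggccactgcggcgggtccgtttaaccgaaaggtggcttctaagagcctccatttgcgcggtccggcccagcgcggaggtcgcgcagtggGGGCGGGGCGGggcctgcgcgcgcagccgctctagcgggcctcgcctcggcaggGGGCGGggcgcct
Srsf5: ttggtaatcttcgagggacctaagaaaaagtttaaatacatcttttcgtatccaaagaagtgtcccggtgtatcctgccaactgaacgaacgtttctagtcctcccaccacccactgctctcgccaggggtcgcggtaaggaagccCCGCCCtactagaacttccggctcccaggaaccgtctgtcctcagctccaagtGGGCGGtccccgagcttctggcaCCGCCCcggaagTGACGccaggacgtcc
Srsf9: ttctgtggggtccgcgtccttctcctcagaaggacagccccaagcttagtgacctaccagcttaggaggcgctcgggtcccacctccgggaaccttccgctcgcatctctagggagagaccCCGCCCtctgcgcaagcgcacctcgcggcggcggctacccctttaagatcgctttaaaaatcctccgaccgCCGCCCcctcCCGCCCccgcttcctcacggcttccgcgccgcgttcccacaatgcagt

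RefSeq windows were found for 30 of the 32 members, and not for Hnrnpll and Hnrnpul2. These windows were rich in GC, with a median of 68% in the 11 SR genes and 60.6% in 18 hnRNP genes against 52.4% over all 32851 windows of the table. They were also rich in CpG, with a median of 25 CpG in SR and 23 in hnRNP windows against 6 in all. GC boxes stood in 10 of 11 SR and 13 of 18 hnRNP windows, against 32.7% of all windows, and CCAAT boxes in 3 of 11 and 12 of 18 against 33.8%. The full cAMP response element (TGACGTCA), which holds its half-site TGACG, was in none of the 29 windows of tested members and in 1.55% of all, and the half-site alone in 6 of 11 SR and 9 of 18 hnRNP windows against 17.8%. The AP-1 motif TGACTCA was in 0 SR and 1 hnRNP window (4.46% of all), the serum response element in none (1.47%), and TATAAA in 2 SR and 1 hnRNP windows (12.4%). Among the windows printed, the half-site lies 18 bases before the start in Hnrnpa2b1 and 16 bases before it in Srsf5, and Hnrnpu and Srsf9 hold only GC boxes. These are matches of letters and no binding was measured.

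Per length, Hnrnpa2b1 and Hnrnpu stood above all other members, at a mean of 18.9 and 16.1 RPKM (CPM per kilobase of gene). Next came Hnrnph1 at 8.86, Hnrnpk at 8.24, Srsf1 at 8.19, Srsf5 at 7.61 and Srsf3 at 7.53 RPKM, whose ranges over the libraries overlap. Srsf12 was lowest at 1.16 RPKM, with Hnrnpa1 next at 1.26. The families were close in level, with a median of 4.79 RPKM over SR genes and 4.04 over tested hnRNP genes. SR genes were the shorter, with a median length of 7.23 kb against 11.8 kb, and the members ran from 2.68 kb (Hnrnpa0) to 39.2 kb (Hnrnpm). Some members are neighbours on the same strand, within 1000 kb. Hnrnpd and Hnrnpdl on chromosome 5 are 54.6 kb apart, Hnrnpll and Srsf7 on chromosome 17 are 138 kb apart, Hnrnpa0 and Hnrnpk on chromosome 13 are 263 kb apart, and Srsf10 and Hnrnpr on chromosome 4 are 441 kb apart.

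**Figure D1:**
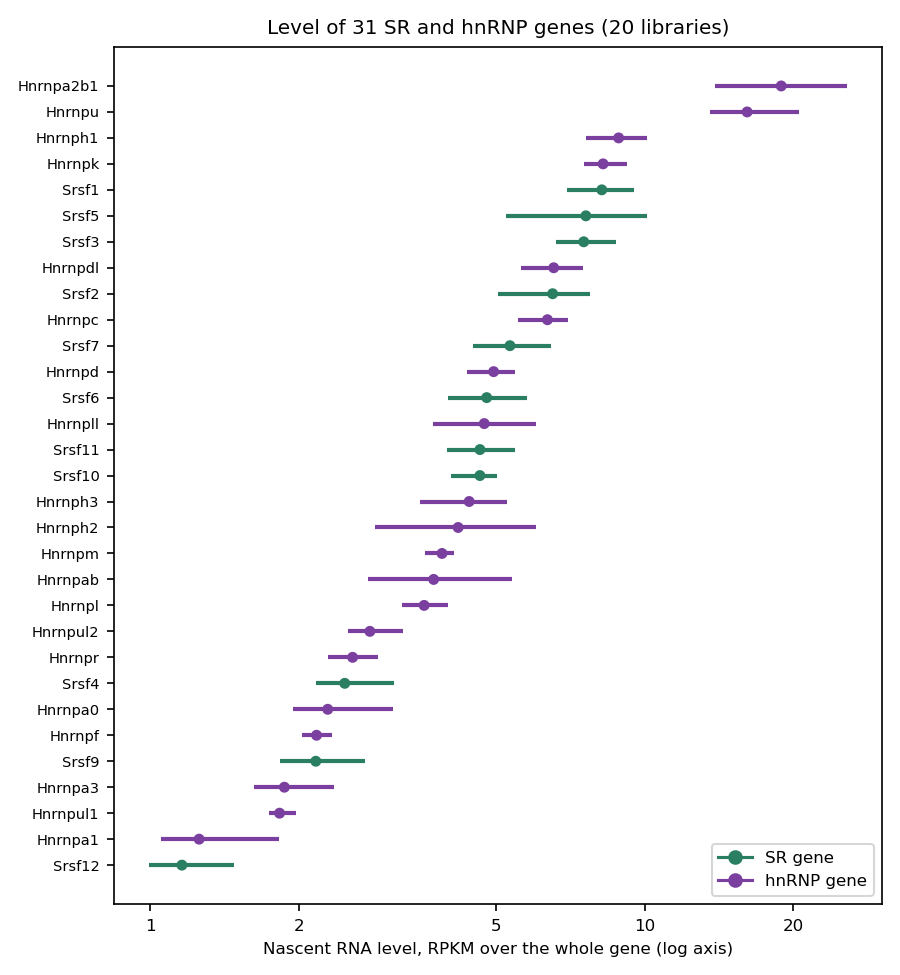
Nascent RNA level of the 31 tested members in RPKM (log axis): points are means over 20 libraries and lines run from the lowest to the highest library, green for SR and purple for hnRNP genes. Hnrnpa2b1 (18.9) and Hnrnpu (16.1) stand above the other members and Srsf12 (1.16) is lowest.

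After 1 h of bicuculline in DMSO, more SR genes fell than rose and more hnRNP genes rose than fell. Of 11 SR genes 2 rose and 6 fell, and of 20 hnRNP genes 6 rose and 2 fell, by edgeR's quasi-likelihood test at an adjusted p under 0.05. Over all genes tested 44.6% were called, 20% higher and 24.5% lower, so that 72.7% of SR genes and 40% of hnRNP genes were called. The median log2 fold change was -0.19 in SR genes and 0.03 in hnRNP genes, against -0.04 over all genes tested. The risers were Srsf5, Srsf7, Hnrnpa2b1, Hnrnpll, Hnrnpu, Hnrnph3, Hnrnpc and Hnrnpm, and those that fell were Srsf9, Srsf6, Srsf4, Srsf12, Srsf2, Srsf10, Hnrnpa0 and Hnrnpr.

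At 4 h in DMSO the split between the families was like that at 1 h, with the shared water libraries behind both. There 1 SR gene rose and 5 fell, and 6 hnRNP genes rose and 1 fell, where 49.2% of all genes were called (23.7% higher, 25.5% lower). The medians were -0.14 for SR, 0.04 for hnRNP and -0.02 for all genes tested. Srsf11 was the SR gene that rose, Hnrnpd joined the hnRNP risers, and Hnrnpu was no longer called.

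Under MM401 each time has its own water group. After 1 h, 4 SR genes rose and 3 fell, and 6 hnRNP genes rose and 1 fell, with 39.9% of all genes called (18.1% higher, 21.8% lower). After 4 h, 5 SR genes rose and 1 fell, and 5 hnRNP genes rose and 0 fell, with 44.6% of all genes called (23% higher, 21.7% lower). For that last 0 by edgeR, 0 hnRNP genes were lower at an unadjusted p under 0.05, and the 8 hnRNP genes under it were all higher. This split rests on 2 water libraries: without replicate 2 of MM401 with water 4 h, 2 SR genes rose and 1 fell while 0 hnRNP genes rose and 2 fell, and without replicate 1 they were 3 and 1 SR and 3 and 0 hnRNP genes. With the replicate number as a block, 4 SR genes rose and 3 fell, as at 1 h, and 6 hnRNP genes rose and 1 fell. Median log2 fold changes at 1 h were -0.09 for SR, 0.08 for hnRNP and -0.0018 for all genes, and at 4 h they were -0.02, 0.09 and 0.02.

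How many members counted as higher or lower depended on the scaling. Scaling by plain library totals moved the median log2 fold change of all genes by -0.19 at 1 h and -0.28 at 4 h in DMSO and by -0.21 and -0.075 under MM401, and changes in this text are relative to the TMM scaling, which sets most genes near 0. With plain totals, 0 SR genes rose and 6 fell while 3 hnRNP genes rose and 5 fell at 1 h in DMSO, and 0 and 6 SR and 2 and 10 hnRNP genes did so at 4 h. Under MM401 they were 1 and 7 SR and 3 and 6 hnRNP genes at 1 h, and 2 and 1 SR and 1 and 1 hnRNP genes at 4 h. With a smooth trend of each library against gene length removed, 5 SR genes rose and 3 fell while 11 hnRNP genes rose and 0 fell at 1 h in DMSO, and 5 and 3 SR and 10 and 1 hnRNP genes did so at 4 h. In MM401 that setting gave 4 and 2 SR and 11 and 1 hnRNP genes at 1 h, and 5 and 2 SR and 6 and 0 hnRNP genes at 4 h. Among the members described one by one below, plain totals ended the calls of Srsf5 and Srsf7 at 1 h in DMSO (0.07 and 0.034), Srsf11 at 4 h in both pretreatments (0.083 and 0.14), Srsf1 at 1 h in MM401 (0.073), Srsf7 at both times in MM401 (0.13 and 0.14), Hnrnpa2b1 at 4 h in DMSO (0.040), and Hnrnph3 in all comparisons but 4 h in DMSO (0.12 at 1 h in DMSO, 0.089 and 0.19 in MM401). Removing the length trend ended those of Srsf2 (-0.032), Srsf12 (-0.17), Hnrnpa0 (-0.15) and Hnrnpr (-0.13) at 1 h in DMSO, Srsf9 (-0.046) and Srsf6 (-0.13) at 4 h in DMSO, and Srsf12 at 1 h in MM401 (-0.18). The settings also made calls. Plain totals gave calls to Srsf2 and Srsf6 at 1 h in MM401 (-0.31 each), to Hnrnpa0 at 4 h in DMSO (-0.55), to Srsf11 as lower at 1 h in MM401 (-0.17, adjusted p = 0.011) and to Hnrnpu as lower at 4 h in DMSO (-0.27, adjusted p = 0.00108). Removing the length trend gave calls in DMSO to Srsf1 at both times (0.29 and 0.35), Srsf11 at 1 h (0.14), and Srsf5 and Srsf7 at 4 h (0.28 and 0.30), and to Srsf9 at 4 h in MM401 (-0.20). The rises of Hnrnpa2b1, Hnrnpu and Hnrnpll at 1 h kept their calls under both settings in both pretreatments.

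**Figure D2:**
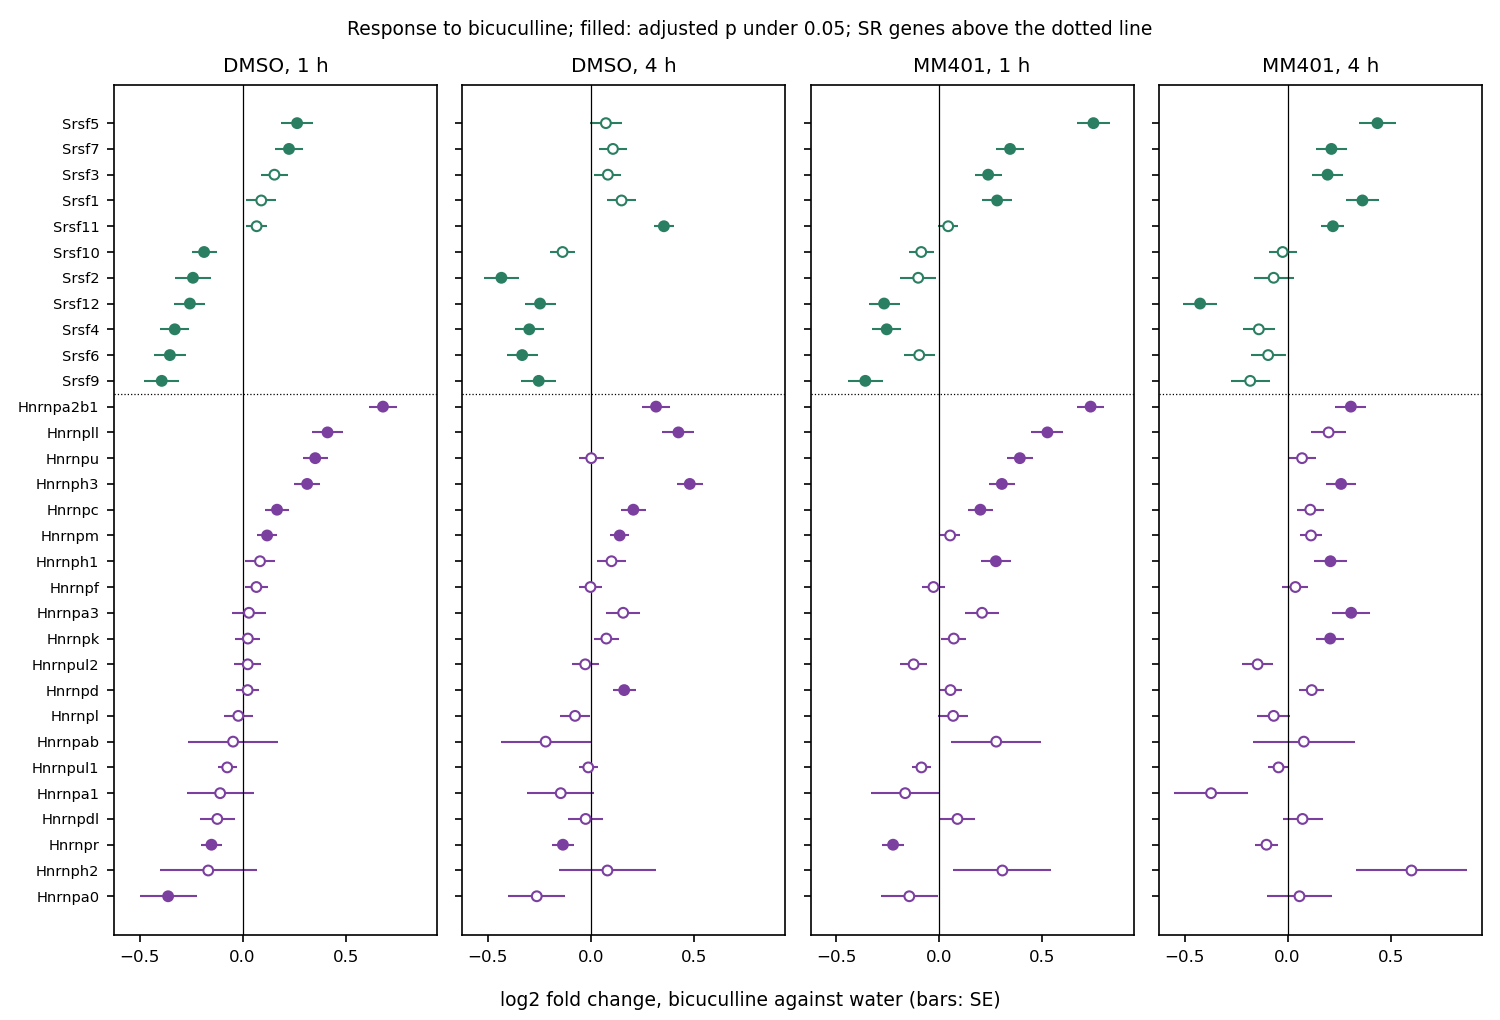
Log2 fold change of each member after bicuculline against water (horizontal axis) in 4 comparisons, with SE as bars; filled points had an adjusted p under 0.05 and SR genes lie above the dotted line. In each comparison 5 of 11 SR points lie right of 0, and Hnrnpa2b1 lies farthest right among hnRNP genes at 1 h in both pretreatments (0.68 and 0.73).

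Because the scaling of a library cancels in the difference between the families, that difference was also taken within each library, as the mean log2 CPM of the 11 SR genes minus that of the 20 hnRNP genes. In DMSO it was -0.32 ± 0.0059 with water, -0.47 ± 0.06 after 1 h and -0.47 ± 0.02 after 4 h of bicuculline (SD, n = 3 each). In MM401 it was -0.39 ± 0.0024 with water 1 h (n = 3), -0.38 ± 0.04 with water 4 h (n = 2), -0.48 ± 0.02 after 1 h and -0.44 ± 0.01 after 4 h of bicuculline (n = 3 each). The groups with and without bicuculline did not overlap within either pretreatment, with water libraries between -0.33 and -0.32 and bicuculline libraries between -0.52 and -0.41 in DMSO. Under MM401 the water libraries ran from -0.41 to -0.35 and the bicuculline libraries from -0.49 to -0.42. These are scores over the members and were given no test.

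In summed CPM the hnRNP family moved more in DMSO. The SR sum was 559 ± 12.7 CPM in DMSO with water, 547 ± 21.4 after 1 h and 564 ± 19.2 after 4 h (SD, n = 3), groups that overlap. The hnRNP sum was 1581 ± 2.23, 1809 ± 51.4 and 1724 ± 40.0 CPM in the same groups, and its bicuculline libraries were all above its water libraries. The difference at 1 h came to 228 CPM, of which Hnrnpa2b1, Hnrnpu and Hnrnpll together made up 196 CPM and the other 17 hnRNP genes 32.8 CPM. Under MM401 the hnRNP sum went from 1582 ± 36.6 to 1868 ± 22.1 CPM at 1 h (286 CPM, with 228 CPM in those 3 genes), while the SR sum went from 536 ± 7.42 to 562 ± 24.9 CPM. At 4 h the 3 genes made up 79.1 of 144 CPM in DMSO and 66.1 of 138 CPM in MM401. The 3 were picked after their values were seen, as the largest contributors at 1 h. At 4 h Hnrnpa2b1 and Hnrnpll were still the largest contributors in both pretreatments. Hnrnpu was then no longer among the 3 largest in either, and contributed 0.23 CPM in DMSO. At 4 h in MM401 the SR sum was higher too, going from 532 ± 0.832 (SD, n = 2) to 569 ± 12.5 CPM (n = 3) with no overlap of libraries, which is 6.98% against 8.75% for the hnRNP sum. The ratio of the SR to the hnRNP sum was 0.354 ± 0.00801 with water, 0.302 ± 0.0117 after 1 h and 0.327 ± 0.00407 after 4 h in DMSO.

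**Figure D3:**
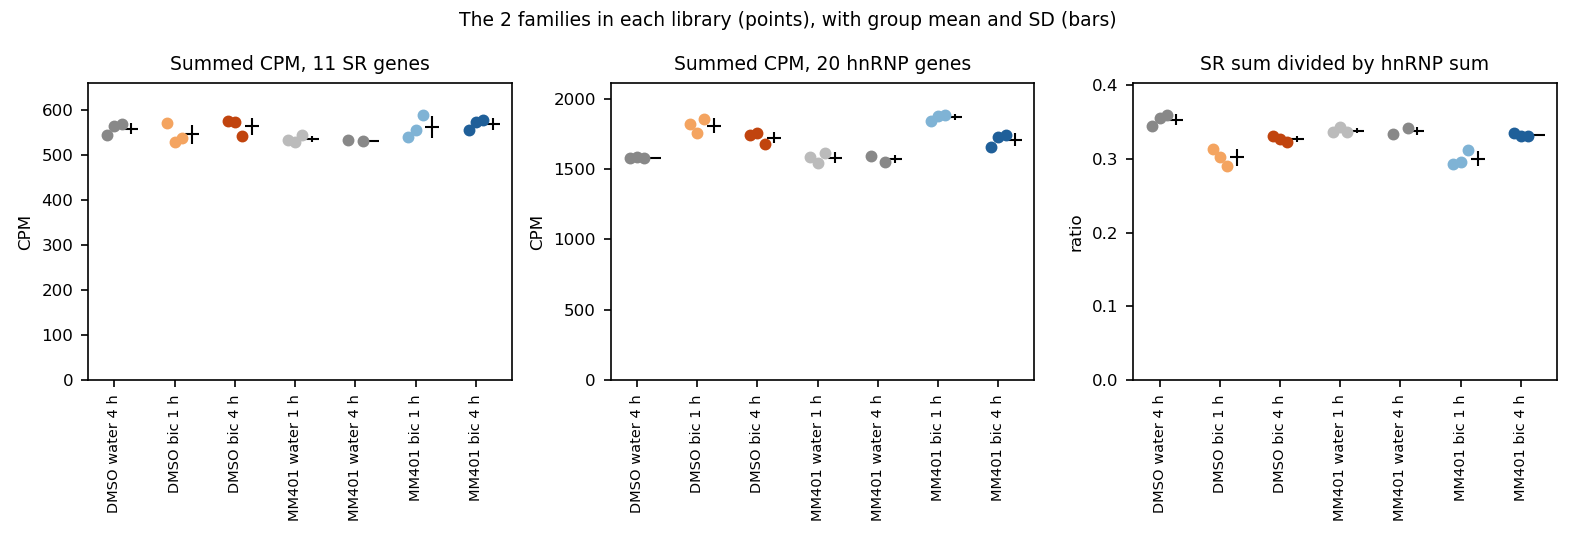
Summed CPM of the 11 SR genes (left), of the 20 tested hnRNP genes (middle) and their ratio (right) in each library (points), with group mean and SD; bic is bicuculline, and axes start at 0. The hnRNP sum is highest in the 1 h bicuculline groups (1809 and 1868 CPM), and the SR sum runs from 532 CPM (MM401 with water 4 h) to 569 CPM (MM401 with bicuculline 4 h).

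Hnrnpa2b1, which encodes a core protein of the hnRNP particle that also carries dendritic mRNAs, had the largest response of its family at 1 h. It was at 142, 139 and 147 CPM in replicates 1 to 3 of DMSO with water, at 233, 212 and 243 after 1 h of bicuculline and at 193, 178 and 162 after 4 h. Every bicuculline library was above every water library. It had risen 1.60-fold at 1 h (log2 0.68, SE 0.07, adjusted p = 3.79e-08) and stood 1.24-fold above water at 4 h (log2 0.32, SE 0.07, adjusted p = 0.000432). Under MM401 its water libraries were at 143, 131 and 144 CPM at 1 h and 146 and 138 at 4 h, and its bicuculline libraries at 238, 235 and 223 at 1 h and 170, 171 and 186 at 4 h. The log2 fold changes were 0.73 and 0.31, and again no library overlapped. The 4 h call in MM401 was lost without replicate 2 of MM401 with water 4 h (0.24). From 1 h to 4 h of bicuculline it fell by 0.37 in DMSO (adjusted p = 0.000155) and by 0.40 in MM401 (adjusted p = 6.06e-05).

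Hnrnpu, also known as scaffold attachment factor A and tied to chromatin as well as to RNA, was raised at 1 h and not called against water at 4 h. It was at 251, 249 and 227 CPM in DMSO with water, 310, 317 and 301 after 1 h of bicuculline and 232, 263 and 234 after 4 h. The 1 h libraries lay above the water libraries, and the 4 h libraries overlapped them. The log2 fold change was 0.35 at 1 h (SE 0.06, adjusted p = 7.72e-05) and 0.00 at 4 h (SE 0.06, adjusted p = 0.988), and Hnrnpu fell by 0.35 between those times (adjusted p = 0.000101). MM401 cultures went from 253, 251 and 261 CPM with water 1 h to 328, 331 and 344 with bicuculline 1 h, and were at 253 and 228 with water 4 h and 243, 256 and 257 with bicuculline 4 h. Their log2 fold changes were 0.39 (adjusted p = 2.7e-05) and 0.07 (adjusted p = 0.432), and the fall from 1 h to 4 h was by 0.41 (adjusted p = 2.05e-05). Hnrnpu overlaps Cox20 on the opposite strand, and the use of strand in counting is not given in the sources used here.

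Hnrnpll, a relative of hnRNP L known for its control of CD45 splicing in T cells, rose at both times in DMSO. It was at 135, 123 and 127 CPM with water, 167, 152 and 192 after 1 h and 181, 163 and 171 after 4 h of bicuculline. No bicuculline library overlapped the water libraries, and the log2 fold changes were 0.41 (SE 0.08, adjusted p = 0.000172) and 0.42 (SE 0.08, adjusted p = 9.54e-05). In MM401 it went from 132, 122 and 131 to 194, 198 and 162 CPM at 1 h (log2 0.52, adjusted p = 1.25e-05). At 4 h it stood at 134 and 143 with water and 160, 158 and 161 with bicuculline, a log2 difference of 0.20 with an adjusted p of 0.0668, which became a call when the compared groups were fitted alone (0.18, adjusted p = 0.00893).

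Hnrnph3, of the hnRNP H and F group that binds runs of G, was one of 3 members called in all 4 comparisons with bicuculline, the others being Hnrnpa2b1 and Srsf12, where 18.8% of all genes tested were called in all 4. It was at 35.2, 32.3 and 34.3 CPM in DMSO with water, 38.0, 43.7 and 44.9 after 1 h and 45.5, 48.1 and 48.3 after 4 h. Its log2 fold change was 0.31 at 1 h (SE 0.06, adjusted p = 0.000356) and 0.48 at 4 h (SE 0.06, adjusted p = 1.66e-06), and it rose further by 0.17 between them (adjusted p = 0.0441). Under MM401 it went from 35.7, 36.0 and 35.0 to 46.8, 44.0 and 41.0 CPM at 1 h and from 37.1 and 35.4 to 43.0, 42.2 and 45.0 at 4 h, with log2 fold changes of 0.30 and 0.26. The latter call was lost without replicate 2 of MM401 with water 4 h (0.19). All its bicuculline libraries were above the matching water libraries. It overlaps Rufy2 on the opposite strand.

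Among the SR genes that rose, Srsf5 had the largest change. It was at 34.2, 40.5 and 34.5 CPM in DMSO with water, 43.0, 40.6 and 47.7 after 1 h of bicuculline and 34.6, 41.7 and 38.6 after 4 h. The 1 h libraries lay just above the water libraries (log2 0.26, SE 0.08, adjusted p = 0.00889), and the 4 h libraries overlapped them (log2 0.07, adjusted p = 0.475). In MM401 the water libraries were lower, at 29.2, 26.3 and 30.7 CPM at 1 h and 29.4 and 28.7 at 4 h, and the bicuculline libraries stood at 46.5, 47.4 and 50.7 at 1 h and 39.1, 40.8 and 37.9 at 4 h. The groups did not overlap, and the log2 fold changes were 0.75 (SE 0.08, adjusted p = 1.37e-07) and 0.44 (SE 0.09, adjusted p = 0.000464). The larger response under MM401 was not established: the difference between the pretreatments was 0.47 at 1 h (SE 0.12, adjusted p = 0.352) and 0.36 at 4 h (SE 0.12, adjusted p = 0.229). That 1 h difference took water 4 h as the reference on either side, whereas the 0.75 above is against MM401 with water 1 h.

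Srsf7 and Srsf1 rose by less. Srsf7, an SR protein with a zinc knuckle that also serves as an mRNA export adaptor, went from 36.0, 35.4 and 37.9 to 46.7, 39.5 and 41.5 CPM at 1 h in DMSO (log2 0.22, SE 0.07, adjusted p = 0.00827). This call was lost when replicate 1 of DMSO with bicuculline 1 h was left out (log2 0.15). Under MM401 Srsf7 rose by 0.34 at 1 h (adjusted p = 0.00028) and 0.21 at 4 h (adjusted p = 0.0251), the latter lost in 4 of 5 fits that left out 1 library. Srsf1, the founding member of the family, was at 45.6, 51.3 and 52.0 CPM in DMSO with water and overlapped with it after bicuculline (57.5, 52.2 and 48.8 at 1 h, and 55.4, 59.4 and 50.4 at 4 h). In MM401 it rose from 49.2, 45.3 and 44.5 to 53.0, 54.8 and 60.9 CPM at 1 h (log2 0.28, adjusted p = 0.00368) and from 46.3 and 44.6 to 59.0, 60.1 and 56.2 at 4 h (log2 0.36, adjusted p = 0.00109).

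Srsf11, an SR protein with a part in neuronal microexon splicing, was the SR gene that rose late. It was at 117, 109 and 104 CPM in DMSO with water, 118, 116 and 113 after 1 h and 143, 143 and 137 after 4 h of bicuculline. The 1 h libraries overlapped the water libraries (log2 0.07, adjusted p = 0.278), and the 4 h libraries were all above them (log2 0.35, SE 0.05, adjusted p = 3.65e-06). The rise from 1 h to 4 h was 0.29 (adjusted p = 8.74e-05). MM401 cultures were at 114, 117 and 116 CPM with water 1 h and 114 and 113 with water 4 h, and at 115, 122 and 122 after 1 h and 132, 136 and 128 after 4 h of bicuculline. There the log2 fold change with TMM scaling was 0.04 at 1 h and 0.22 at 4 h (adjusted p = 0.00278), with a rise of 0.15 between the times (adjusted p = 0.0262). The 4 h call in MM401 was lost without replicate 2 of MM401 with water 4 h, at a log2 fold change of 0.18.

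**Figure D4:**
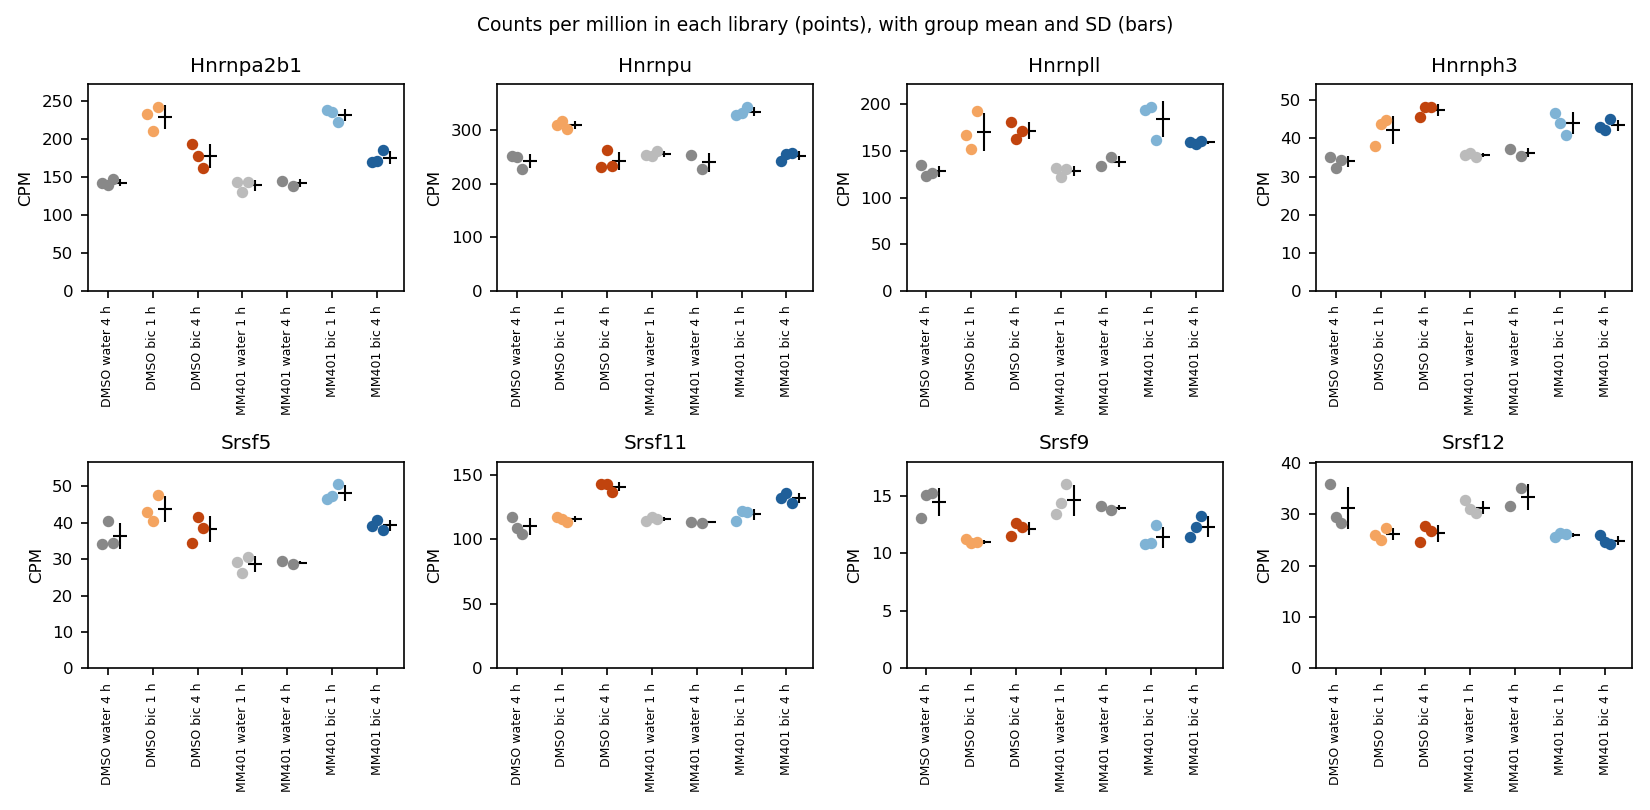
CPM of 8 members in each library (points), with group mean and SD; bic is bicuculline, and axes start at 0. Hnrnpa2b1 and Hnrnpu are highest after 1 h of bicuculline, Srsf11 after 4 h, and Srsf9 and Srsf12 are lower in the bicuculline groups than in the water groups.

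Of the SR genes that fell, Srsf12 did so in all 4 comparisons. Srsf12 is the closest relative of Srsf10 and, like it, can repress splicing. It was at 35.9, 29.5 and 28.3 CPM in DMSO with water, 26.0, 25.1 and 27.4 after 1 h and 24.5, 27.7 and 26.6 after 4 h, with no overlap. It fell by 0.26 at 1 h (SE 0.08, adjusted p = 0.00823) and by 0.25 at 4 h (SE 0.08, adjusted p = 0.0091). Both of these calls were lost without replicate 1 of DMSO with water, at -0.15 and -0.14, and the 4 h call was lost in 1 further such fit. In MM401 it went from 32.7, 30.9 and 30.2 to 25.6, 26.3 and 26.1 CPM at 1 h and from 31.6 and 35.2 to 25.9, 24.5 and 24.2 at 4 h, again with no overlap, and fell by 0.27 (adjusted p = 0.00692) and 0.42 (adjusted p = 0.000299).

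Srsf9, a small SR protein, was at 13, 15 and 15.2 CPM in DMSO with water, 11.2, 10.8 and 11 after 1 h of bicuculline and 11.5, 12.6 and 12.2 after 4 h. All bicuculline libraries were below all water libraries. It fell by 0.39 at 1 h (SE 0.08, adjusted p = 0.000641) and by 0.25 at 4 h (SE 0.08, adjusted p = 0.0153), the latter call lost without replicate 1 of DMSO with bicuculline 4 h (-0.22). With MM401 it went from 13.4, 14.4 and 16.0 to 10.8, 10.9 and 12.4 CPM at 1 h (adjusted p = 0.00169), where it fell by 0.36. At 4 h it stood at 14.1 and 13.8 against 11.4, 12.3 and 13.2, a log2 difference of -0.18 with an adjusted p of 0.122, which became -0.22 with an adjusted p of 0.0283 with the replicate block.

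Srsf6 and Srsf2 fell in DMSO and were not called under MM401 with TMM scaling, though both were at 1 h with plain totals. Srsf6 was at 29.1, 32.2 and 32.5 CPM in DMSO with water, 23.9, 27.0 and 22.5 after 1 h and 25.3, 25.2 and 24.0 after 4 h, with no overlap, and fell by 0.35 (adjusted p = 0.000654) and 0.33 (adjusted p = 0.000895). In MM401 its libraries overlapped, and the log2 differences were -0.10 and -0.09. Srsf2, also known as SC35 and long used as a marker of nuclear speckles, was at 22.1, 24.6 and 24.8 CPM in DMSO with water, 20.8, 19.4 and 20.4 after 1 h and 18, 18.8 and 16.1 after 4 h. These groups did not overlap either, and Srsf2 fell by 0.24 (adjusted p = 0.0257) and 0.43 (adjusted p = 0.000231). The 1 h call of Srsf2 was lost in 4 of 6 fits that left out 1 library, over a range of -0.29 to -0.19. Under MM401 the differences of Srsf2 were -0.10 and -0.07, and the first became a call without replicate 3 of MM401 with bicuculline 1 h (-0.21, adjusted p = 0.0459). For Srsf2 and Srsf6 too, the difference between the pretreatments did not pass the test (Srsf2 at 4 h: 0.37, SE 0.13, adjusted p = 0.237; Srsf6 at 4 h: 0.24, SE 0.11, adjusted p = 0.328).

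The hnRNP genes that fell were Hnrnpr and Hnrnpa0. Hnrnpr, whose protein is known for axonal mRNA transport in motor neurons, was at 96.6, 94.5 and 96.8 CPM in DMSO with water, 90.6, 80.1 and 88.5 after 1 h and 88.7, 86.8 and 86.5 after 4 h. It fell by 0.15 (adjusted p = 0.0214) and 0.14 (adjusted p = 0.0337), and each of these calls was lost in 4 of 6 fits that left out 1 library. In MM401 at 1 h it fell by 0.22 (adjusted p = 0.00147), from 101, 95.4 and 101 to 80.1, 85.5 and 88.8 CPM. Hnrnpa0, a relative of hnRNP A1 at a low level here, was at 5.55, 6.8 and 8.3 CPM with water and 5.36, 5.54 and 5.20 after 1 h in DMSO. It fell by 0.36 (SE 0.14, adjusted p = 0.0368), a call lost in 5 of 6 such fits, with values from -0.49 to -0.19.

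Of the remaining SR genes, Srsf4 fell in 3 comparisons (by 0.33 and 0.30 in DMSO and by 0.26 at 1 h in MM401), Srsf10 fell at 1 h in DMSO (by 0.19), and Srsf3 rose under MM401 (0.24 at 1 h and 0.19 at 4 h). Both calls of Srsf3 were lost with plain totals, and that at 4 h also with the replicate block. Srsf4 overlaps Gm12992 on the opposite strand, so its counts are less certain. Thus each of the 11 SR genes was called at least once over the 4 comparisons, 5 as higher and 6 as lower, and none in both directions. Of the 20 hnRNP genes, 10 were called only as higher, 2 only as lower and 8 in no comparison. Over all genes tested 72.8% were called at least once, 33% only as higher and 35.5% only as lower. Hnrnpc, which binds runs of U, rose in 3 comparisons (0.17 and 0.21 in DMSO and 0.20 at 1 h in MM401). Hnrnpm rose in DMSO (0.12 and 0.14), Hnrnph1 in MM401 (0.27 and 0.21), Hnrnpd at 4 h in DMSO (0.16), and Hnrnpa3 and Hnrnpk at 4 h in MM401 (0.31 and 0.21). With plain totals, no rise of Hnrnpc, Hnrnpm, Hnrnph1, Hnrnpd, Hnrnpa3 or Hnrnpk kept its call. Hnrnpa3 overlaps the gene model Gm6793 on its strand, and Hnrnpk holds Mir7-1 on its strand and overlaps Rmi1 on the other, so their counts are less certain.

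The 8 hnRNP genes never called were Hnrnpa1, Hnrnpab, Hnrnpdl, Hnrnpf, Hnrnph2, Hnrnpl, Hnrnpul1 and Hnrnpul2. They differ in how well they were measured, and Hnrnpa1 overlaps Gm10052 on its strand and Hnrnpab overlaps Phykpl on the other. Hnrnpul1 varied little, with a within-group SD of 0.04 on the log2 scale, and its 4 log2 fold changes ran from -0.09 to -0.01. Hnrnph2, Hnrnpab and Hnrnpa1 had the largest SDs of all members, at 0.30, 0.28 and 0.23, against a median of 0.09. Hnrnph2 on chromosome X was at 18.3 ± 2.08 CPM in MM401 with water 4 h (SD, n = 2) and at 27.7 ± 4.12 with bicuculline 4 h (n = 3), a log2 difference of 0.60 (SE 0.27) with an adjusted p of 0.086. A difference of that size was thus not called at the spread of Hnrnph2.

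The pretreatments share no libraries, so their calls can be set side by side. At 1 h, 11 members were called in both, all in the same direction, which is 68.8% of the 16 called in DMSO and 78.6% of the 14 called in MM401. They were Srsf5, Srsf7, Hnrnpa2b1, Hnrnpc, Hnrnph3, Hnrnpll and Hnrnpu as higher and Srsf4, Srsf9, Srsf12 and Hnrnpr as lower. At 4 h, 4 were called in both in the same direction (Srsf11, Hnrnpa2b1 and Hnrnph3 higher, Srsf12 lower), which is 30.8% of the 13 in DMSO and 36.4% of the 11 in MM401. Over all genes tested, those called in both made up 69.1% of the DMSO and 77.1% of the MM401 calls at 1 h, near the shares of the members, and 68.3% and 75.2% at 4 h, above them. Of the genes called in both, 99.1% at 1 h and 99.8% at 4 h had the same direction. The sign of the log2 fold change was the same in the pretreatments for 25 of 31 members at 1 h and 27 of 31 at 4 h, and for 77.4% and 80.3% of all genes tested.

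Between 1 h and 4 h of bicuculline, few members moved. In DMSO 1 SR gene rose (Srsf11), 1 hnRNP gene rose (Hnrnph3) and 2 fell (Hnrnpa2b1 and Hnrnpu), so 12.9% of the members against 34.2% of all genes tested (19.1% higher, 15.2% lower). In MM401 Srsf11 rose, Srsf5 fell by 0.30 (adjusted p = 0.00557), Hnrnpk rose by 0.16 (adjusted p = 0.0464), and Hnrnpa2b1, Hnrnpu and Hnrnpll fell, which is 19.4% of the members against 33.6% of all genes (17.5% higher, 16% lower). Hnrnpll fell there by 0.21 (adjusted p = 0.0371). These 6 calls in MM401 came to 3 or 4 in each fit that left out 1 library, and to 4 with DESeq2, with plain totals and with the compared groups alone. In water under MM401, 0 members differed between 4 h and 1 h by edgeR (0.867% of all genes; 0 members at an unadjusted p under 0.05).

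MM401 itself was followed by 0 called members in each comparison with DMSO. In water at 4 h edgeR called 0 of 31 members where it called 0.0826% of all genes, with 2 members at an unadjusted p under 0.05. In bicuculline at 1 h it called 0 against 0.0059% of all genes (1 member at an unadjusted p under 0.05), and at 4 h 0 against 0% (0 members). Averaged over the 3 comparisons it called 0 members against 0.13% of all genes (1 member at an unadjusted p under 0.05), and DESeq2 also called 0 members in each of the 4. The 95% intervals of that average lay between -0.43 and 0.26 on the log2 scale for all 31 members. In the single comparisons they were wider, from -1.10 to 0.56 in water 4 h. They ran from -0.34 to 0.67 in bicuculline 1 h and from -0.51 to 0.51 in bicuculline 4 h. The members at an unadjusted p under 0.05 in water were Srsf5, at 34.2, 40.5 and 34.5 CPM in DMSO against 29.4 and 28.7 in MM401 (log2 -0.33, SE 0.09, adjusted p = 0.151), and Srsf2 (log2 -0.23, SE 0.10, adjusted p = 0.313).

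The test of whether the response to bicuculline differed with MM401 called 0 members at 1 h (0% of all genes, 3 members at an unadjusted p under 0.05) and 0 at 4 h (0% of all genes, 4 members). For the 1 h test, the reference on either side was water 4 h. DESeq2 called 0 members in both. Replicate 1 of DMSO with water 4 h bore on these counts: without it, and with 7.5% of all genes then called in water, Srsf5 was lower in MM401 with water 4 h (log2 -0.37, adjusted p = 0.0221). Without that library the response at 4 h differed for Srsf5 (0.41, SE 0.12, adjusted p = 0.0395) and Srsf2 (0.42, SE 0.13, adjusted p = 0.0497), with 9.15% of all genes called, and at 1 h 0 members were called. Which of these describes the cultures cannot be told from 3 water libraries. The test of any difference among the 7 groups called 10 of 11 SR genes (all but Srsf10) and 9 of 20 hnRNP genes, against 69.3% of all genes tested.

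Other genes of splicing were read from 4 lists, with TMM scaling throughout. Of 39 core spliceosome genes tested, 2 rose and 14 fell at 1 h and 2 rose and 15 fell at 4 h in DMSO, with medians of -0.16 and -0.17. That is 41% and 43.6% of the list, against 44.6% and 49.2% of all genes tested. The risers were Sf3b1, the largest subunit of the particle that holds the branch point (0.64 at 1 h and 0.43 at 4 h), and Sf1, which recognises the branch point first (0.26 and 0.24). Among those that fell were the Sm protein genes Snrpf (by 0.40 and 0.60) and Snrpe (by 0.30 and 0.52), and Snrpd2 at 4 h (by 0.54). Under MM401 3 rose and 14 fell at 1 h and 3 rose and 12 fell at 4 h (43.6% and 38.5% of the list, against 39.9% and 44.6% of all genes), with Sf3b1 at 0.80 and 0.47.

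Of 28 genes for SR kinases and SR-related proteins, 7 rose and 3 fell at 1 h and 10 rose and 5 fell at 4 h in DMSO, with medians of 0.04 and 0.10. That is 35.7% and 53.6% of the list, against 44.6% and 49.2% of all genes tested. Srrm4, the neuronal regulator of microexons, rose by more than any SR or hnRNP gene, by 1.09 at 1 h (SE 0.09, adjusted p = 2.22e-09) and 1.06 at 4 h. Srpk2, a kinase of SR proteins, rose at 4 h (0.65), and Tra2a, an SR-like exon activator, at both times (0.21 and 0.49). Those with the largest falls were Srrm3 (by 0.54 at 4 h), the related microexon regulator, Rnps1 (by 0.18 and 0.40), a part of the exon junction complex, and the kinase Clk3 (by 0.25 at 4 h). Under MM401 9 rose and 3 fell at 1 h and 10 rose and 4 fell at 4 h (42.9% and 50% of the list, against 39.9% and 44.6% of all genes).

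Among 26 other RNA-binding proteins of hnRNP particles, 4 rose and 2 fell at 1 h and 8 rose and 3 fell at 4 h in DMSO, with medians of 0.02 and 0.05. That is 23.1% and 42.3% of the list, below the 44.6% and 49.2% of all genes tested. Taf15 (0.73) and Fubp1 (0.72) rose most, both at 4 h, and Pcbp3 rose at 1 h (0.47). Pcbp4 fell at 4 h (by 0.64) and Fubp3 at both times (by 0.28 and 0.36). Under MM401 8 rose and 2 fell at 1 h and 8 rose and 3 fell at 4 h (38.5% and 42.3% of the list, against 39.9% and 44.6% of all genes).

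Of 21 neuronal splicing regulators, 7 rose and 2 fell at 1 h and 12 rose and 2 fell at 4 h in DMSO, with medians of 0.16 and 0.21. That is 42.9% of the list at 1 h, near the 44.6% of all genes tested, and 66.7% at 4 h, against 49.2% of all genes. Mbnl2, a muscleblind protein that controls splicing in the brain, rose by 1.17 at 1 h (SE 0.09, adjusted p = 1.21e-09) and 1.06 at 4 h. Mbnl3 (0.90) and Khdrbs2 (0.71), which acts on neurexin splicing, rose at 4 h. Rbfox3, the antigen of the NeuN antibody, fell by 0.57 at 4 h, Elavl3 by 0.18 and 0.37, and Tia1 by 0.25 at 1 h. Under MM401 9 rose and 3 fell at 1 h and 9 rose and 5 fell at 4 h, which is 57.1% and 66.7% of the list against 39.9% and 44.6% of all genes tested.

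Markers of cell types moved with bicuculline as well. Among all genes tested, 20% were called higher at 1 h and 23.7% at 4 h in DMSO, and 18.1% and 23% in MM401. Called lower were 24.5% and 25.5% in DMSO and 21.8% and 21.7% in MM401. In DMSO the 7 neuronal markers summed to 4701 to 5845 CPM with water, 5670 to 6070 after 1 h and 6944 to 7455 after 4 h, and 1 of them rose and 2 fell at 1 h while 4 rose and 2 fell at 4 h. The 3 markers of inhibitory neurons summed to 317 to 335, 483 to 562 and 633 to 675 CPM, with 2 of 3 called higher at each time. Of 6 astrocyte markers, which summed to 1091 to 1546 CPM with water, 2 rose and 1 fell at 1 h and 0 were called at 4 h (1486 to 1628 and 1273 to 1401 CPM). The 7 oligodendrocyte lineage markers summed to 139 to 160 with water against 175 to 189 CPM at 4 h (3 of 7 higher), with Mog near 0. Of 5 microglial markers tested 0 were called at 1 h and 1 rose at 4 h, and Tmem119 was near 0. Endothelial markers summed to 1.44 to 3.01 CPM over all groups, with 0 of 2 called in DMSO. Those of fibroblasts and mural cells summed to 6.55 to 10.6 CPM over all groups (1 of 4 higher at 4 h in DMSO), and those of dividing cells to 27.6 to 54.8 CPM (1 of 3 higher at 4 h in DMSO). Under MM401 neuronal markers summed to 4719 to 4999 and 5501 to 5654 CPM in water 1 h and 4 h and to 5529 to 6557 and 6289 to 6866 in bicuculline 1 h and 4 h, with 2 of 7 called higher and 1 lower at 1 h and 3 higher and 2 lower at 4 h. There, all 3 markers of inhibitory neurons rose at both times, 4 of 6 astrocyte markers rose at 1 h and 2 at 4 h, 2 of 7 oligodendrocyte lineage markers at 1 h and 3 at 4 h, and 0 of 5 microglial markers at 1 h and 3 at 4 h. Markers of dividing cells rose in 1 of 3 at 1 h and 3 of 3 at 4 h, those of fibroblasts and mural cells in 1 of 4 at each time, and endothelial ones in 0 of 2. The part of these shifts in the changes of SR and hnRNP genes was not tested.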

How the data were processed

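BrU-seq counts per gene were used as the authors deposited them: raw read counts over the whole span of each gene, exons and introns together, in 1 table of 21 libraries. Per the submitters' processing notes the tools were Bowtie2, featureCounts, UMI-tools, DESeq2 and deepTools, with the mm10 build. Versions, the use of strand and the treatment of duplicates are not given in the sources used here. The gene lengths used for RPKM are those of the deposited table, and the 31 tested members each have 1 position there.

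Samples were grouped by the labels. Replicate 3 of MM401 with water 4 h was left out, as the rule for the members asks. The tools were edgeR 4.0.16 and limma 3.58.1 under R 4.3.3. Low genes were removed by filterByExpr (minimum count 10, minimum total 15). Libraries were scaled by TMM and tested in 1 robust quasi-likelihood fit of 7 group means over 20 libraries. Tests were two-sided, with Benjamini-Hochberg adjustment over all genes of a comparison, and a call is an adjusted p under 0.05. CPM are relative to the TMM-scaled total, SE is the standard error of a log2 fold change, and family scores used a prior count of 2. The common biological coefficient of variation was 8.77%. The labels say biological replicates of mixed sex and do not say which share an animal or a preparation, so p-values measure the spread between these libraries.

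Values per library are given for up to 4 members per family and direction with the largest called change over the 4 comparisons of bicuculline with water, and from each list of other splicing genes up to 3 per direction called in DMSO. One gene that this rule would name is not reported here. Members, lists and this rule were chosen with earlier results of these data known. The scripts were tested on simulated data. Alternatives were DESeq2 1.42.0, plain library totals, no count filter, all 21 libraries, a replicate block, removal of a length trend (lowess span 0.3), a fit of the compared groups alone, and leaving out each library.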

Additional observations from a re-analysis of the deposited data

How the results depend on the processing

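With all 21 libraries, replicate 3 of MM401 with water 4 h included, the members called went from 16 to 7 (1 h in DMSO), from 13 to 6 (4 h in DMSO), from 14 to 10 (1 h in MM401), from 11 to 4 (4 h in MM401), from 4 to 0 and from 6 to 1 (4 h against 1 h of bicuculline in DMSO and MM401) and from 19 to 9 (any of 7 groups). Over all genes the calls fell as well, from 7557 to 5223, from 8344 to 6411, from 6769 to 4599, from 7572 to 5898, from 5805 to 3745, from 5691 to 3646 and from 11760 to 9136 in the same order. The difference between the families then became -0.35 for bicuculline 4 h in MM401, 0.24 for MM401 in water 4 h and 0.30 for water 4 h against 1 h in MM401. Fitting only the compared groups left 9 members at 1 h in DMSO, and plain library totals left 5 at 4 h in MM401. The cause of these changes was not tested.

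Taken as the log2 ratio of summed CPM, the difference between the families was -0.23 and -0.11 for bicuculline 1 h and 4 h in DMSO (against -0.15 and -0.15 as means of log2 values), -0.17 and -0.024 in MM401 (against -0.09 and -0.06), and 0.11 and 0.15 for 4 h against 1 h of bicuculline in DMSO and MM401. With the length trend removed it was -0.12 for bicuculline 4 h in DMSO and -0.031 for MM401 in water 4 h.

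Leaving out 1 library at a time gave 10 to 14 members called for bicuculline 1 h in DMSO (10 without replicate 3 of DMSO with bicuculline 1 h), 5 to 10 for bicuculline 4 h in MM401 (5 without replicate 2 and 7 without replicate 1 of MM401 with water 4 h), 0 to 1 for MM401 in water 4 h, 3 to 4 for bicuculline 4 h against 1 h in MM401 (3 without replicate 1 of the 1 h or replicate 2 of the 4 h group), and 0 to 2 for the difference in response at 4 h. The difference between the families ran from -0.089 to -0.026 for bicuculline 4 h in MM401, from -0.089 to -0.025 for MM401 in water 4 h and from -0.025 to 0.039 for water 4 h against 1 h in MM401.

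Of the values whose sign turned, Hnrnpu at 4 h in DMSO (adjusted p = 0.00108) and Srsf11 at 1 h in MM401 (adjusted p = 0.011) became calls with plain totals. With plain library totals such values were -0.21 for Srsf5, -0.13 for Srsf1, -0.17 for Srsf7 and -0.27 for Hnrnpu at 4 h in DMSO, -0.10 for Srsf1 and -0.12 for Srsf11 at 1 h in DMSO, -0.17 for Srsf11 at 1 h in MM401, and -0.0042 for Hnrnpu and -0.016 for Hnrnpa0 at 4 h in MM401. Hnrnpu at 4 h in DMSO was also -0.019 with all 21 libraries and -0.020 with the compared groups alone, and with 1 library left out it ran from -0.072 to 0.034. Calls at 4 h in DMSO were gained by Srsf1 (0.21) and Srsf7 (0.18) without replicate 3 of DMSO with bicuculline 4 h and by Hnrnpa0 (-0.39) without replicate 1 of DMSO with water 4 h. With 1 library left out at 4 h in MM401, Hnrnpu ran from -0.036 to 0.13 and Srsf6 from -0.25 to 0.014. Hnrnpa0 at 4 h in MM401 was -0.075 with the length trend removed.

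Whether the replicate numbers pair the libraries was not settled. Correlations of same-numbered libraries ran from -0.23 to 0.28 (median 0.10), 24 of 45 were over 0.1, and 3 of 15 pairs of groups had all 3 over 0.1. Libraries of different numbers were not compared in this way. With the replicate block, 16 members were called at 1 h and 13 at 4 h in DMSO, and 15 and 14 in MM401, and Hnrnpa0 at 4 h in MM401 was -0.0015. Over all genes the block gave 8035 and 8782 calls in DMSO and 7291 and 7892 in MM401. Without it there were 7557, 8344, 6769 and 7572 in the same order. The spread between replicates limits the precision most for Hnrnph2 (within-group SD 0.30 on the log2 scale) and Hnrnpab (0.28).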
